A study of Zea mays subsp. mays with 2 samples.

Results

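The loci described here were abundant in both organs of the maize seedling and differed little between them. A locus was taken when it lay on chromosomes 1 to 10, was the only entry at its position, spanned more than 300 bases, reached 50 FPKM in the shoot and in root, and had a larger value at most 1.5 times the smaller. FPKM gives the sequenced fragments of a locus relative to the length of its transcript and to the depth of the library. The rule found 1651 loci among the 29674 of the deposited table. Their levels and ratios chose them, so both are given as a description and support nothing.

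The plants were Zea mays ssp. mays of the inbred B73, grown in a growth chamber and harvested 14 days after germination. The shoot group was 1 library of polyadenylated RNA from shoots, and the root group was 1 such library from roots of the same kind of plant. No treatment, mutation or transgene is named for either group, and the labels do not say how many plants a library pooled. With 1 library per organ the spread between plants is unknown, no difference between organs has a replicate check, and no p-value was computed.

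Genes that a plant uses in nearly every cell, such as those of ribosomal proteins, translation factors, actin, tubulin, ubiquitin and the enzymes of sugar breakdown, are known as housekeeping genes. Their messages tend to be plentiful and alike between organs, and several serve as references when other genes are measured. In a bulk organ, however, a similar level can also arise from cell types that differ and balance out. Fewer cells of a type and less RNA per cell cannot be told apart in such samples. The table gives assembled loci without gene names, so which of the 1651 are housekeeping genes is not known here, and no gene name or marker could be checked.

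Each criterion removed a different kind of locus. Of the listed loci, 29627 lay on the 10 chromosomes, 24534 of these were alone at their position, and 23777 of those spanned more than 300 bases. Among the 23777, 3224 reached 50 FPKM in the shoot and 3378 in root. Both organs were at 50 FPKM or more at 2355 loci, and 1651 of these were within the ratio limit. A further 169 loci met every other criterion but shared a position, and 118 met every other criterion but spanned 300 bases or less. At another 425 loci the ratio was within the limit and 1 organ alone was at 50 FPKM or more.

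The balanced loci were 70.1% of the 2355 abundant ones. At any level, 50.6% of the 23597 single-position loci above 300 bases with both values above 0 lay within the same limit. A floor in both organs by itself leaves out loci with large differences, so the higher share is not a property of abundance. Of the 4247 loci at 50 FPKM or more in at least 1 organ, 1892 were so in 1 only. Of these 1892, 425 were within the limit. The balanced share did not rise with the floor beyond low levels: it was 71.9% with a floor of 20 FPKM and 69.4% with 100 FPKM. With both organs at 10 FPKM or more and below 50 FPKM, 5027 loci were within the limit and 1375 past it. There the cap on the larger value by itself keeps ratios small, and the abundant loci have no such cap. Of the 2355, 580 (24.6%) were more than 1.5 times higher in root and 124 (5.27%) more than 1.5 times higher in shoot. At any level those shares were 25.3% and 24.1%. These 704 abundant loci past the limit served as the comparison group, called unbalanced below, and they too were defined by the measured ratio.

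**Figure D1:**
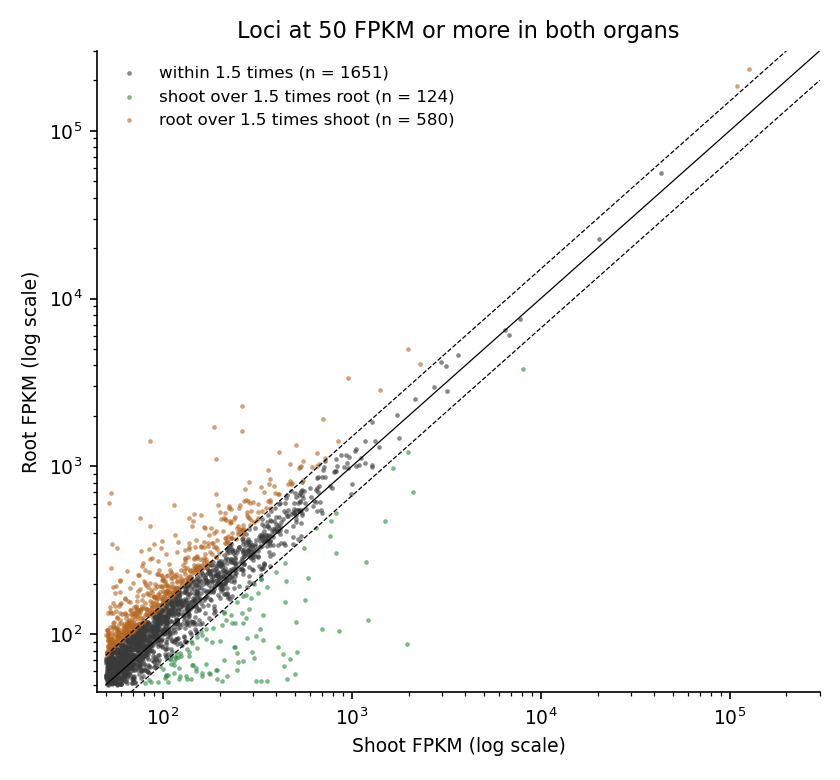
Shoot FPKM (x, log scale) against root FPKM (y, log scale) of the 2355 loci at 50 FPKM or more in both organs, 1 point per locus, with equality as a solid line and the 1.5-fold limits dashed. The 1651 balanced loci fill the band, and 580 of the points outside it lie on the root side against 124 on the shoot side.

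Counting error was estimated as small at these levels, by a fit to the lowest values that was tested only on exact steps without noise. The steps of the lowest values in the table placed the worth of 1 fragment at 0.00884 FPKM in the shoot and 0.00766 FPKM in the root for 1000 effective bases, with mean cosines of 0.543 and 0.530 over 113 and 174 low loci. Provided that mapped fragments were the sole depth scale, 50 FPKM over 1000 bases rested on about 5656 fragments in shoot and 6527 in root. The exact 95% Poisson intervals were 48.7 to 51.3 FPKM and 48.8 to 51.2 FPKM, and they cover counting error only. The shortest balanced locus, 302 bases long, rested by the same fit on about 1354 shoot and 1514 root fragments.

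The balanced loci were a small share of the loci and a large share of the signal, which the floor of 50 FPKM alone would bring about. They were 5.56% of the listed loci and held 16.5% of the summed FPKM in the shoot and 20.2% in root. Of the summed FPKM of single-position loci above 300 bases they held 31.5% in shoot and 30.1% in root, from 6.94% of those loci. The 704 unbalanced loci held 17.0% of all summed FPKM in the shoot and 30.5% in root. FPKM sums weigh each locus per kilobase, so they count transcripts rather than fragments.

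That signal was spread over many balanced loci. Their median was 91.6 FPKM in the shoot, where the quartiles were 65.4 and 177, and 104 FPKM in the root, where they were 73.3 and 198. The values ran from 50.1 to 43297 FPKM in the shoot and from 50.1 to 56165 FPKM in the root. In both organs at once, 710 loci reached 100 FPKM, 84 reached 500 FPKM and 24 reached 1000 FPKM. The most abundant balanced locus held 12.1% of the balanced loci's sum in shoot and 13.9% in root, and 50% of that sum took 128 loci in shoot and 122 in root. The unbalanced loci had higher medians, 108 FPKM in the shoot and 164 FPKM in the root. Among them, 50% of the sum came from 2 loci in each organ.

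Those 2 loci carried most of the unbalanced signal. The chromosome 6 locus from 112371867 to 112372186 measured 126508 FPKM in the shoot and 234113 FPKM in the root. The chromosome 3 locus from 100803594 to 100804470 measured 109549 FPKM in the shoot and 186084 FPKM in the root. Together they made up 63.9% of the unbalanced sum in shoot and 68.8% in root. Their ratios of 1.85 and 1.70 placed them outside a limit of 1.5, and a limit of 2 would have taken them in.

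The 2 most abundant balanced loci stood well above the rest. On chromosome 2, the locus from 38005293 to 38006677, 1384 bases wide, measured 43297 FPKM in the shoot and 56165 FPKM in the root. Also on chromosome 2, the locus from 15154502 to 15154846, 344 bases wide, measured 20336 FPKM in the shoot and 22814 FPKM in the root. Root was the higher organ at both, by 1.30 and 1.12 times. Without them the balanced loci held 13.6% of the summed FPKM in the shoot and 16.2% in root.

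The next loci in order of mean level were well below these, and the organs were nearly equal at several of them. The chromosome 2 locus from 32633713 to 32636060 measured 7818 FPKM in the shoot and 7571 FPKM in the root. The chromosome 10 locus from 125829639 to 125830637, 998 bases wide, measured 6464 FPKM in the shoot and 6481 FPKM in the root. On chromosome 1, the locus from 218772962 to 218773772 measured 6833 FPKM in the shoot and 6057 FPKM in the root. Shoot was thus slightly higher at the first and last of these, and the chromosome 10 locus had a ratio of 1.003.

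The other loci among the 10 highest ranged from 2847 to 4113 FPKM in mean level. The chromosome 5 locus from 52232756 to 52266127, with the wide span of 33371 bases, measured 3639 FPKM in the shoot and 4588 FPKM in the root. The chromosome 1 locus from 178476721 to 178477798 measured 2953 FPKM in the shoot and 4166 FPKM in the root, the largest ratio of the 10 at 1.41. On chromosome 2, the locus from 30408843 to 30418727 measured 3139 FPKM in the shoot and 3950 FPKM in the root. The 3 loci on chromosomes 5, 1 and 2 just given were higher in root.

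Chromosome 9 held the last 2 of the 10. The locus from 140718203 to 140772636, 54433 bases wide, measured 3206 FPKM in the shoot and 2833 FPKM in the root. The locus from 18136780 to 18137238, 458 bases wide, measured 2717 FPKM in the shoot and 2977 FPKM in the root. These neighbours in rank thus differed more than 100-fold in span. Of the 10 highest balanced loci, chromosome 2 carried those at ranks 1, 2, 3 and 8.

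Most balanced loci leaned toward the root. Root was the higher organ at 1222 of the 1651 and shoot at 429, and the median log2 of root over shoot was 0.18. Over all 23777 single-position loci above 300 bases, root was the higher organ at 55.3%, against 74.0% of the balanced ones, and the median log2 was 0.09. The unbalanced loci, which met the same floor, leaned further, with root higher at 580 of 704 (82.4%) and a median log2 of 0.75. The lean was therefore not particular to the balanced loci. Over all 2355 abundant loci the median ratio of root to shoot was 1.22, so a band centred on equality cut the distribution off its centre. With the root values divided by that ratio, a shift of -0.28 on the log2 scale, 2174 loci reached the floor in both organs. Of these, 1735 met the rule, and 1403 of the 1651 (85.0%) were among them. Root was then higher at 929 (53.5%) and shoot at 806. Of the loci past the limit, 248 were on the root side and 191 on the shoot side. Division by the median ratio of the abundant loci brings the sides near even by construction, so these counts describe the shift only. Rescaling each library to the same sum moved root against shoot by 0.11 on the log2 scale, and root was higher at 79.2% of the 591 loci that then met the rule.

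Within the band, small ratios were common. The median ratio of larger to smaller value was 1.19, with 507 loci whose larger value exceeded the smaller by at most 10% and 1027 by at most 25%. The 3 closest to equality were at 289.790 and 289.783 FPKM on chromosome 8 from 70511115 to 70513155, at 57.2529 and 57.2592 FPKM on chromosome 1 from 61698162 to 61711207, and at 61.7900 and 61.7799 FPKM on chromosome 5 from 13608416 to 13612479, shoot before root. Such agreement is finer than the counting error allows to be resolved. It marks a place in the ranking rather than a measured equality.

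At the ratio limit, loci just inside and just outside were alike. The last 3 inside were at 137 and 206 FPKM on chromosome 3 from 128521905 to 128525825, at 122 and 183 FPKM on chromosome 5 from 203215114 to 203218772, and at 133 and 199 FPKM on chromosome 4 from 25787715 to 25797727, shoot before root. The first 3 outside were at 245 and 367 FPKM on chromosome 10 from 123105727 to 123109598, at 71.2 and 107 FPKM on chromosome 9 from 131161869 to 131170177, and at 92.3 and 138 FPKM on chromosome 6 from 150509521 to 150519381. All 6 were higher in root, with ratios of 1.4997 to 1.5004.

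At the floor, the lower values of the 3 loci just inside were 50.0875 FPKM, 50.0945 FPKM and 50.1464 FPKM, and those of the 3 just outside were 49.9830 FPKM, 49.9774 FPKM and 49.9553 FPKM. The first of these inside lay on chromosome 7 from 95538568 to 95543177, at 50.1 FPKM in the shoot and 55.1 FPKM in the root. The first outside lay on chromosome 1 from 7164448 to 7168584, at 49.98 FPKM in the shoot and 69.8 FPKM in the root.

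Span did not enter the rule beyond the minimum of 300 bases. It is the end minus the start of the listed position, introns included. None of the 26802 listed nuclear positions overlapped another, so a position may be a wider assembled region than its locus. That was not tested, and it limits every comparison of spans below. Balanced loci had a median span of 3700 bases, with a 95% order-statistic interval of 3563 to 3853 and quartiles of 2210.5 and 5984. Unbalanced loci had a median of 3367.5 bases, with an interval of 3187 to 3550 and quartiles of 1889.5 and 4891. Over all 23777 single-position loci above 300 bases the median was 3309 bases. The intervals treat loci as independent draws, which neighbours and gene families are not, and the difference was not tested.

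The 2 directions of the unbalanced loci differed in span. The 580 higher in root had a median of 3452.5 bases, with an interval of 3256 to 3640, and the 124 higher in shoot had a median of 2444 bases, with an interval of 1779 to 3288. The same order held inside the band as a whole. The 1222 balanced loci higher in root had a median of 3810.5 bases (3657 to 3967) and the 429 higher in shoot one of 3120 bases (2793 to 3501). It did not hold at every ratio. Where the organs differed by 10% to 25%, the medians were 3847.5 bases for root and 4035.5 bases for shoot. Over 4 times they were 1819 bases for 14 loci higher in root and 2638.5 bases for 18 higher in shoot. Of the balanced loci higher in shoot, 10.02% spanned more than 500 and up to 1000 bases, against 4.42% of those higher in root.

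Span did not fall steadily with the ratio. Loci whose organs differed by at most 10% had a median of 3303 bases, those at 10% to 25% one of 3897 bases and those at 25% to 50% one of 3754.5 bases. Outside the band the medians were 3576 bases at 1.5 to 2 times, 2822.5 bases at 2 to 4 times and 2332 bases for the 32 loci over 4 times. Spans above 5000 bases made up 31.4%, 35.6% and 33.3% of the 3 classes inside the band and 28.0%, 16.2% and 9.38% of the 3 outside it. The loci nearest to equality were therefore no longer than those at the edge of the band, and the lowest medians over both directions were those of loci that differed by 2 times or more. Balanced loci higher in shoot by 25% to 50% were also short, with a median of 2250 bases over 111 loci. Level rose along the same classes. The median of the mean FPKM was 93.4, 98.0 and 99.8 FPKM in those inside the band. Outside the band it was 124, 163 and 281 FPKM. The part of level in these spans was not tested.

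**Figure D2:**
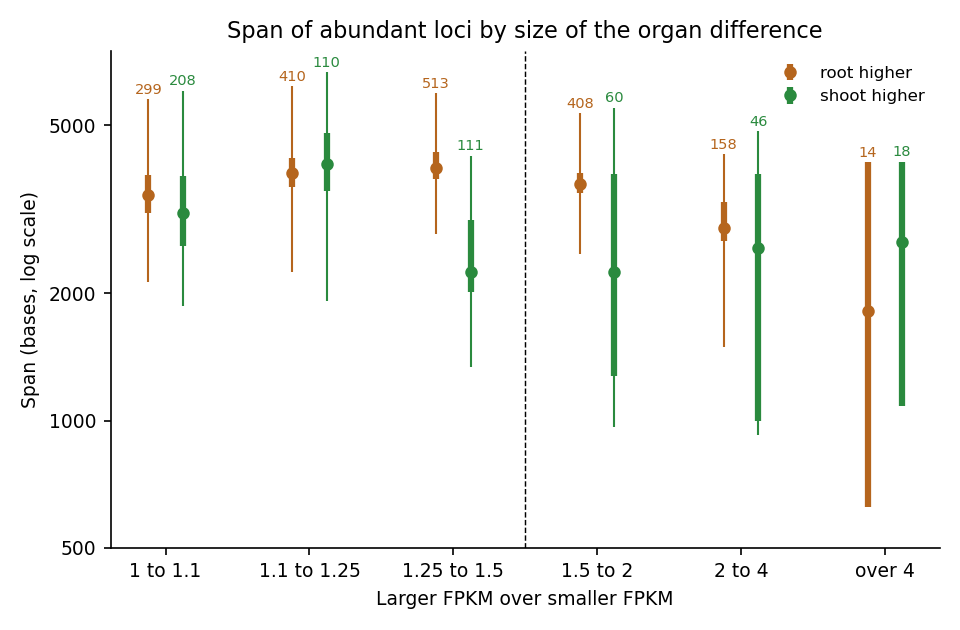
Span in bases (y, log scale) of the abundant loci by the ratio of larger to smaller FPKM (x), for loci higher in root and higher in shoot. Points are medians, thick bars their 95% order-statistic intervals, thin bars the quartiles and numbers the loci; left of the dashed line lie the balanced loci, whose medians run from 2250 to 4035.5 bases.

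Abundant loci above 10000 bases had the highest shares of balanced ones. Span classes are given without their lower bound. Of the abundant loci spanning 10000 to 20000 bases, 133 of 162 (82.1%, exact 95% binomial interval 75.3% to 87.7%) were balanced, and of those above 20000 bases 61 of 75 (81.3%, 70.7% to 89.4%). At 2000 to 5000 bases, the class with the most loci, the share was 750 of 1099 (68.2%, 65.4% to 71.0%). It was lowest at 500 to 1000 bases, with 97 of 172 (56.4%, 48.6% to 63.9%), and 40 of 56 (71.4%, 57.8% to 82.7%) at 300 to 500 bases. The share more than 1.5 times higher in shoot was 14.3% at 300 to 500 bases, 15.7% at 500 to 1000 bases and 2.28% at 5000 to 10000 bases, and it was 8.02% at 10000 to 20000 bases and 3 of 75 loci above 20000 bases. The median log2 of root over shoot of all abundant loci in these 5 classes was 0.11, 0.12, 0.33, 0.20 and 0.16.

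The difference in span between balanced and unbalanced loci varied with level. Among loci whose lower organ was at 50 to 75 FPKM, the balanced had a median of 4532 bases and the unbalanced one of 3709.5 bases, and at 75 to 100 FPKM the medians were 4484.5 and 3625 bases. The medians at 100 to 200 FPKM were 3401 and 3180.5 bases. At 200 to 500 FPKM, and in no other class, the order was the opposite, with 2358 bases for the 251 balanced and 3053 bases for the unbalanced. At 500 to 1000 FPKM the median was 2523 bases for 60 balanced loci and 996 bases for 17 unbalanced ones, 14 higher in root and 3 in shoot. Above 1000 FPKM it was 1237 bases for 24 balanced loci and 876 bases for the few unbalanced ones, 5 higher in root and 2 in shoot. With the floor raised to 100 FPKM the balanced median was 2805.5 bases and the unbalanced one 2975 bases.

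The share of loci within the limit varied less with level than with span. It was 71.1% where the lower organ was at 50 to 75 FPKM, 69.7% at 75 to 100 FPKM, 66.1% (62.1% to 70.03%) at 100 to 200 FPKM and 72.1% at 200 to 500 FPKM. Of the 77 loci at 500 to 1000 FPKM it was 77.9% (67.0% to 86.6%), and of the 31 above 1000 FPKM 77.4% (58.9% to 90.4%). The intervals of these last classes include the 70.1% of all abundant loci, and that of 100 to 200 FPKM lies just below it.

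**Figure D3:**
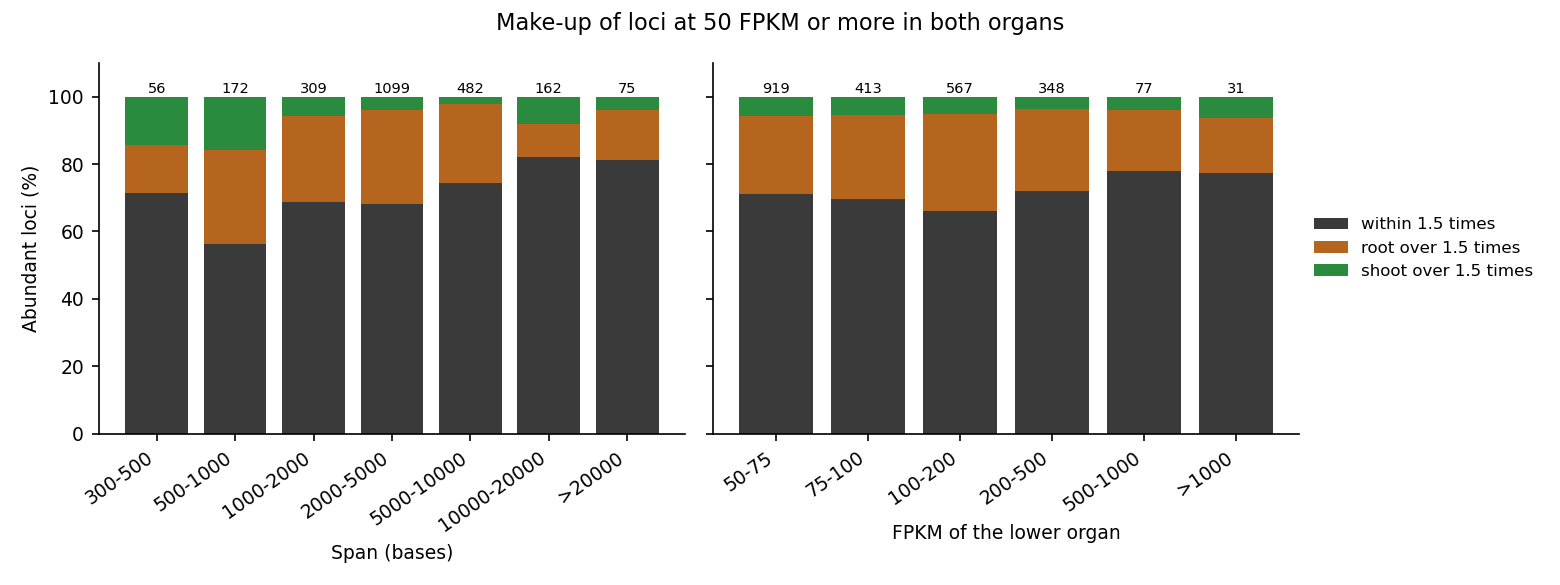
Percent of abundant loci (y) within 1.5 times, higher in root and higher in shoot, by span in bases (left) and by FPKM of the lower organ (right), with the number of loci above each bar. The balanced share is lowest, 56.4%, at 500 to 1000 bases and above 81% beyond 10000 bases.

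Across the balanced loci, span and mean FPKM had a Spearman coefficient of -0.32 over 1651 loci, and over the 704 unbalanced loci it was -0.27. Over all 23777 single-position loci it was 0.24. The values share the library and a length normalization by transcript length, which is tied to span. Loci are not independent replicates, and no p-value is given.

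The widest balanced loci lay on both sides of the balanced medians in level. The widest, on chromosome 8 from 73231994 to 73688308, covered 456314 bases and measured 967 FPKM in the shoot and 1141 FPKM in the root. On chromosome 2, the locus from 115063501 to 115358073 covered 294572 bases and measured 76.5 FPKM in the shoot and 95.1 FPKM in the root. On chromosome 10, the locus from 107585003 to 107766869 covered 181866 bases and measured 144 FPKM in the shoot and 165 FPKM in the root. All 3 were higher in root, by less than 25%.

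Both of the next in span lay on chromosome 6. The locus from 61008899 to 61183541 measured 62.8 FPKM in the shoot and 71.9 FPKM in the root, and the locus from 90045828 to 90210242 measured 492 FPKM in the shoot and 531 FPKM in the root. In all, 61 balanced loci (3.69%) spanned more than 20000 bases, against 14 (1.99%) of the unbalanced and 3.77% of all single-position loci. None of the 26802 listed nuclear positions overlapped another (0 cases). Locus numbers ran to 39085 while 29674 loci are listed, so a wide position may also hold loci that are not in the table. Whether these spans belong to 1 transcript each was not tested.

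The shortest balanced loci were close to the minimum. The chromosome 10 locus from 102011875 to 102012177, 302 bases wide, measured 146 FPKM in the shoot and 161 FPKM in the root. The chromosome 2 locus from 132115870 to 132116177, 307 bases wide, measured 101 FPKM in the shoot and 128 FPKM in the root. The 3 after these, of 314 to 318 bases, lay on chromosomes 8 and 7, and their values ran from 70.2 to 208 FPKM in the shoot and from 95.7 to 241 FPKM in the root. Root was higher at all 5.

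The balanced loci lay on all 10 chromosomes, roughly in proportion to the loci listed there. They were from 5.99% of the single-position loci above 300 bases on chromosome 3, with 156 loci, to 7.66% on chromosome 6, with 154. Chromosome 1 held the most, 257. Of the abundant loci of a chromosome, the balanced made up from 67.0% on chromosome 6 (60.5% to 72.998%) to 74.5% on chromosome 2 (68.6% to 79.8%), and every chromosome's exact interval included the 70.1% of all abundant loci. Chromosome 2 held the largest part of the summed FPKM through balanced loci, 4.70% in shoot and 5.98% in root, because of the 2 most abundant. The next was chromosome 1 with 2.21% in shoot and 2.65% in root.

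**Figure D4:**
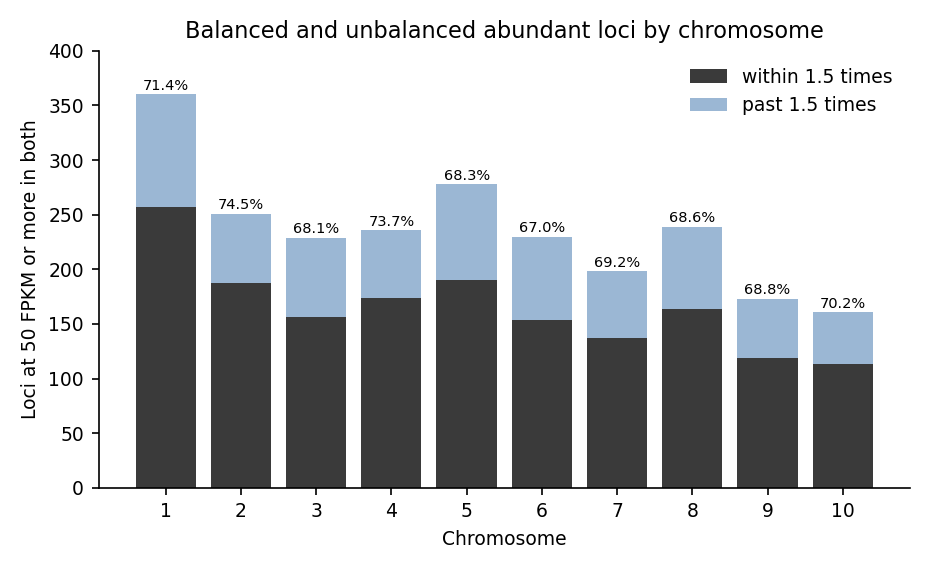
Number of loci at 50 FPKM or more in both organs (y) by chromosome (x), split into those within and past 1.5 times, with the balanced percent above each bar. The percent runs from 67.0 on chromosome 6 to 74.5 on chromosome 2.

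On the chromosomes without a locus among the 10 highest, the most abundant balanced locus had a mean of less than 2847 FPKM, the mean of the last of the 10. On chromosome 3 it lay from 223559256 to 223570189, at 2167 FPKM in the shoot and 2527 FPKM in the root. On chromosome 4 it lay from 237268256 to 237269470, at 1037 FPKM in the shoot and 1243 FPKM in the root. On chromosome 8 it was the locus of 456314 bases given above, at the 967 and 1141 FPKM stated there.

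By mean FPKM, the tops of chromosomes 6 and 7 were the lowest of the 10 chromosomes. On chromosome 6 the most abundant balanced locus lay from 136911004 to 136913794, at 822 FPKM in the shoot and 938 FPKM in the root. On chromosome 7 it lay from 163002681 to 163005749, at 874 FPKM in the shoot and 1175 FPKM in the root. Root was the higher organ at both.

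Along the chromosomes the balanced loci followed the listed loci in general. Place was measured as the distance of the midpoint to the nearer end of the listed loci, in percent of the distance between the first and the last. The median was 15.6% for balanced loci, with an interval of 14.8% to 16.6%, 16.8% for unbalanced loci (15.0% to 18.7%) and 16.7% over all single-position loci. The outer 10% at either end held 34.7% of the balanced and 32.1% of the unbalanced loci. The unbalanced loci higher in root had a median of 15.7%, and those higher in shoot one of 21.5%, with an interval of 17.3% to 23.9%.

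The balanced share of abundant loci was 71.7% (68.5% to 74.8%) in the outer 10% and 64.3% (57.8% to 70.4%) in the innermost class, more than 40% from the nearer end. In that innermost class 24 of 238 loci (10.1%) were more than 1.5 times higher in shoot, against 33 of 799 (4.13%) in the outer 10%. The share higher in root was 25.6% and 24.2%. The shares between these classes ran from 68.8% to 71.0% balanced. Chromosome ends and centres also differ in gene density, and its part in these shares was not tested.

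Locus density around the balanced loci was that of the table as a whole. Within 500000 bases of their midpoints lay a median of 16 other listed positions, the same as around unbalanced loci and around all single-position loci. Where at most 5 positions lay so near, 89 of 132 abundant loci (67.4%, 58.7% to 75.3%) were balanced, and where more than 40 did, 48 of 61 (78.7%, 66.3% to 88.1%).

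The gap to the nearest listed position was also similar between the groups. Its median was 8835 bases for balanced loci, with an interval of 7407 to 10787, and 7267 bases for unbalanced loci, with an interval of 5853 to 10322. Over all single-position loci it was 10462 bases. A neighbour within 1000 bases was listed for 267 balanced loci (16.2%), for 16.3% of the unbalanced and for 16.3% of all single-position loci. A gap above 100000 bases was found at 133 balanced loci (8.06%) and 5.82% of the unbalanced. Of the abundant loci with such a gap, 76.4% (69.4% to 82.5%) were balanced.

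**Figure D5:**
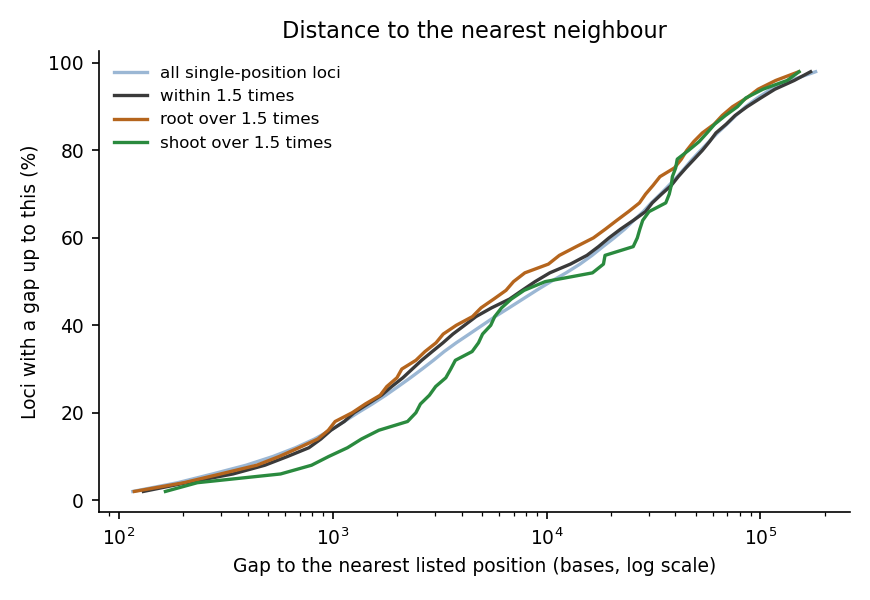
Percent of loci (y) whose gap to the nearest listed position is at most the value on the x axis (bases, log scale), for all single-position loci, balanced loci and the unbalanced loci of each direction. The medians are 10462, 8835, 7003.5 (root) and 9855.5 bases (shoot), and the lines of the balanced and of all loci run close together.

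The most isolated balanced loci lay on chromosomes 2, 3 and 8. On chromosome 2, the locus from 125696140 to 125710827 measured 170 FPKM in the shoot and 210 FPKM in the root and had no listed position within 430043 bases. On chromosome 3, the locus from 95264998 to 95272645 measured 102 FPKM in the shoot and 143 FPKM in the root, with a gap of 429645 bases. On chromosome 8, the locus from 45260966 to 45276109 measured 55.5 FPKM in the shoot and 78.3 FPKM in the root, with a gap of 363638 bases. All 3 were higher in root.

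The loci next to a balanced locus had medians near those of the table. Counting the position before and the position after each balanced locus, there were 3302 neighbours, of which 236 (7.15%) were balanced abundant loci and 92 (2.79%) unbalanced abundant loci. Over all nuclear positions these shares were 6.16% and 2.63%. Neighbours alone at their position had a median of 11.6 FPKM in the shoot and 10.7 FPKM in the root, against 10.6 and 9.97 FPKM over all positions.

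The ratio between organs was also compared among neighbours. Of the 2615 single-position neighbours at 1 FPKM or more in both organs, 57.4% were within 1.5 times, against 57.8% for the neighbours of unbalanced loci and 58.7% for the neighbours of all positions. The unbalanced loci higher in root had unbalanced abundant neighbours higher in root in 3.97% of cases (46 of 1160), whereas the neighbours of balanced loci were of that kind in 2.15% (71 of 3302) and those of all positions in 2.16%. These shares were not tested.

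Neighbouring balanced loci formed 118 pairs, taking in 225 of the 1651. In 11 pairs the gap was at most 1000 bases, in 38 at most 10000 bases and in 34 over 100000 bases, with a median of 36627.5 bases. The same organ was higher in both loci of 78 pairs, and the mean levels lay within 1.5 times of each other in 55. In 3 pairs the spans were within 5% of each other. Since root was higher at 74.0% of all balanced loci, the same organ would be higher in most pairs of unrelated ones too. These counts were not set against other pairs and were not tested.

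The closest pair lay on chromosome 7 with 4 bases between the loci. The first, from 19052735 to 19072458, measured 364 FPKM in the shoot and 310 FPKM in the root, and the second, from 19072462 to 19086956, measured 57.0 FPKM in the shoot and 80.7 FPKM in the root. They leaned to opposite organs. On chromosome 1, 126 bases separated the locus from 42845192 to 42850976, at 78.6 FPKM in the shoot and 93.8 FPKM in the root, from that from 42851102 to 42852973, at 51.2 and 58.0 FPKM. On chromosome 6, 130 bases separated the locus from 164849953 to 164851464, at 105 FPKM in the shoot and 120 FPKM in the root, from that from 164851594 to 164854616, at 94.1 and 95.0 FPKM. Both of these pairs were higher in root throughout. How fragments at the boundary of such close loci were assigned is not given in the sources used here.

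Runs of 3 balanced loci occurred 7 times and runs of 4 occurred 2 times. The more compact run of 4 covered 32961 bases of chromosome 5, from 202192964 to 202225925. Its loci were, in order, at 71.4, 54.7, 91.2 and 51.9 FPKM in the shoot and at 83.4, 57.9, 106 and 55.7 FPKM in the root, with spans of 2072, 16389, 3519 and 1546 bases. Root was higher in each, by 1.06 to 1.17 times.

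The other run of 4 was more abundant and more even. It covered 179737 bases of chromosome 6, from 136516056 to 136695793. Its loci were at 505, 491, 417 and 630 FPKM in the shoot and at 549, 534, 418 and 625 FPKM in the root. Their spans were 3039, 3138, 400 and 2970 bases. The ratios of 1.002 to 1.089 and the 3 near-equal spans set this run apart by eye. Near-identical copies could share reads, and since the sources at hand do not say how reads matching several places were treated, the split of signal among these 4 loci is uncertain.

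Of the runs of 3, the 2 most compact lay near the end of a chromosome. On chromosome 8, between 171754837 and 171768545, the loci were at 74.8, 334 and 59.1 FPKM in the shoot and at 64.9, 397 and 70.2 FPKM in the root. On chromosome 3, between 229518645 and 229542409, they were at 54.8, 54.0 and 60.5 FPKM in the shoot and at 60.4, 64.7 and 68.3 FPKM in the root. The chromosome 8 run thus joined loci whose levels differed more than 5-fold, and that on chromosome 3 loci of nearly 1 level.

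Balanced loci were found in 1018 of the 2051 windows of 1 Mb that held a single-position locus above 300 bases. The densest 4 windows, described after their values were seen, held 8 each. Between 237 and 238 Mb on chromosome 4 they were 8 of 27 loci, at 71.1 to 1037 FPKM in the shoot and 51.1 to 1243 FPKM in the root, with 0 unbalanced abundant loci. Between 167 and 168 Mb on chromosome 6 they were 8 of 26, at 59.7 to 174 FPKM in the shoot and 63.2 to 233 FPKM in the root, also with 0 unbalanced ones. Between 1 and 2 Mb on chromosome 5 they were 8 of 44, and between 171 and 172 Mb on chromosome 8 they were 8 of 43, beside 4 unbalanced ones. At the other end, 350 of the 1088 windows with 10 or more loci held 0 balanced loci. Balanced loci were 6.94% of all single-position loci above 300 bases, and at that rate many such windows would hold 0. The densest windows were picked from all 2051, and clustering was not tested.

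Among the unbalanced loci with the highest levels toward shoot, 4 of 5 lay on chromosome 6. The first, from 48548123 to 48549074, measured 8027 FPKM in the shoot and 3807 FPKM in the root. The largest ratio of all abundant loci was also there, from 145987119 to 145997885, at 1957 FPKM in the shoot and 87.3 FPKM in the root, or 22.4-fold. Toward root the largest was on chromosome 6 as well, from 166083883 to 166084229, at 86.1 FPKM in the shoot and 1410 FPKM in the root, or 16.4-fold. Only 32 of the 2355 abundant loci differed by more than 4 times. The floor of 50 FPKM in both organs by itself leaves out loci with large differences, so this count is not a property of abundance. It left out 1892 loci that were at 50 FPKM or more in 1 organ only, and 425 of those were within the ratio limit. Among the loci that met the floor, most of the comparison group differed by 4 times or less.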

How the data were processed

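Polyadenylated RNA of maize B73 shoots and roots, 14 days after germination, was sequenced as 1 paired-end library each, per the labels. The authors deposited FPKM per assembled locus, with B73 RefGen_v2 coordinates per the file headers. Per the submitters' processing notes, TopHat, Cufflinks and Cuffdiff were used. For their settings and for any scaling between libraries, nothing is stated in the sources at hand. The library kit kept no strand, and overlapping antisense transcripts cannot be told apart. Both columns matched a sample by name. The table lists loci above 1.0002 FPKM in at least 1 organ.

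Ratios used the deposited FPKM without a pseudocount. Depth was estimated from the steps of low values, fitted as a constant over the span less an offset of 220 bases in shoot and 230 bases in root. Span, place, gaps and neighbours were computed in Python 3.11.15 (scipy 1.17.1, numpy 2.4.6, pandas 2.3.3), and plots drawn with matplotlib 3.10.9. The median interval was tested on simulated data and the gap count on made-up positions. The fit was tested on simulated exact steps without noise. That test does not show how well the fit does at the mean cosines found here, 0.543 in shoot and 0.530 in root. Medians have order-statistic intervals and shares exact binomial ones. No test was possible between organs. Neighbours were taken in order of start, with 1 entry per position.

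The rule, the comparison groups and the lists were chosen with earlier results of these data known. Named loci are the 10 highest, the 5 widest and 5 shortest, those nearest equality, the limits, the highest unbalanced loci, the longest runs, the closest pairs, the most isolated loci and the highest locus of each chromosome. Windows, and the choice among runs and pairs, followed the values. The gene table at hand belongs to a later assembly and was not used.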

Additional observations from a re-analysis of the deposited data

How the results depend on the processing

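The number of balanced loci followed the floor, the scaling and the limit: 4439 with a floor of 20 FPKM, 710 with 100 FPKM, 11946 with no floor, 591 with both libraries rescaled to sums of 1000000 and 1027 when the organs could differ by at most 25%. Their share of the abundant loci was 43.6% with that limit of 25%, 89.98% with a limit of 2, 50.6% with no floor, 63.1% after rescaling and 79.8% with root divided by the median ratio of 1.22. Their share of summed FPKM, in shoot and then root, was 9.99% and 11.4% with the limit of 25%, 30.8% and 46.3% with the limit of 2, 20.7% and 25.1% with the floor of 20 FPKM, 13.5% and 16.4% with 100 FPKM, 23.8% and 28.5% with no floor, 12.5% and 14.7% after rescaling and 22.3% and 31.9% after dividing root. It was 24.5% and 28.5% with no minimum span, 17.9% and 21.7% with shared positions kept, 16.6% and 20.3% with 1 added to each FPKM and 15.8% and 19.3% without spans above 20000 bases, an alternative chosen after seeing the data. The median span of balanced loci was 4473 bases with the floor of 20 FPKM, 2805.5 bases with 100 FPKM, 4035 bases with no floor, 2496 bases after rescaling, 3486 bases with no minimum span and 3892.5 bases with shared positions kept. It exceeded the unbalanced median under 9 of the 11 alternatives, and was below it with the floor of 100 FPKM and after rescaling, where the unbalanced median was 3036 bases. The balanced median gap was below the unbalanced one under 3 of the 11. Rescaling acted as a higher floor, since it left 936 abundant loci of 2355, and 579 of its 591 balanced loci were among the 1651. No paired analysis was possible because each organ has 1 library, which also prevents leaving one out.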

Other observations

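Balanced loci of intermediate level were longer than the abundant ones. With both organs at 10 FPKM or more and below 50 FPKM, 5027 loci were within 1.5 times and had a median span of 4928 bases, with an interval of 4832 to 5066, while the 1375 past the limit had a median of 3830 bases, with an interval of 3651 to 4003. Of those balanced loci 7.02% spanned more than 20000 bases, against 3.69% of the 1651 abundant ones. Their median gap to the nearest listed position was 9224 bases and their median distance to the chromosome end 16.03%, close to the 8835 bases and 15.6% of the abundant loci. Root was the higher organ at 63.1% of them, against 74.0% of the abundant ones. Both levels were part of the choice, and the difference was not tested. The cap of 50 FPKM at intermediate level also limits the ratio by itself.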
